A study of Mus musculus with 8 samples.

Results

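The response of mouse muscle stem cells to a 1 h pulse of bone morphogenetic protein 6 (BMP6) was measured in 4 of the 8 RNA-seq libraries of the study. The 4 libraries are the BMP6 cultures and the vehicle cultures of cell isolations 75 and 77, chosen by these labels and not by any measured value. Each isolation gave 1 library treated with vehicle and 1 treated with BMP6. All cells came from wildtype female C57BL/6J mice of 6 to 8 weeks; how many mice went into an isolation is not given in the sources used here. All cultures, vehicle included, were expanded for 2 days on Matrigel and then starved of serum for 6 h with 200 ng/ml of a BMPR-IA/ALK3-Fc fusion, a soluble form of a BMP receptor that binds BMP ligands. The pulse was 100 ng/ml BMP6, or 4 mM HCl with 0.1% BSA as vehicle. The other 4 libraries, from isolations 48 and 54, received 100 ng/ml BMP4 or vehicle by the same scheme and are used only where the ligands are set side by side. By its title the series asks about direct activation of genes of the Notch pathway by BMPs in these cells.

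BMPs are secreted dimers that bind type I and type II serine/threonine kinase receptors. The type I receptor phosphorylates SMAD1, SMAD5 and SMAD9 (also called SMAD8), which join SMAD4 and enter the nucleus. Among the first genes to respond in many cell types are the Id genes, whose proteins block basic helix-loop-helix factors such as MYOD1 and MYF5, and the inhibitory SMADs, which close a negative feedback loop. In muscle stem cells, also called satellite cells, BMP signalling is known to favour expansion over differentiation. Notch signalling, which acts through the transcription factors of the HES and HEY families, is known to hold these cells in the stem cell state.

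Transcript levels are given as TPM, a share of the library's transcripts scaled for transcript length. The 4 libraries held an estimated 48012828 to 52361916 reads. How much read sampling adds to the spread of a gene was not tested. Myogenic identity was clear: Myod1 lay between 422 and 631 TPM, Myog between 110 and 145 TPM, Itga7 between 180 and 226 TPM and Pax7 between 11.1 and 12.5 TPM. Among markers of other cell types Ptprc (leukocytes), Tie1 (endothelium) and Adipoq (adipocytes) were at 0 in every library, and Pecam1 and Pdgfra reached at most 0.262 and 0.354 TPM. Other members of the same lists were expressed, among them Col1a2 (13.2 to 28.6 TPM), Thy1 (11.1 to 12.4 TPM), Acta2 (52.5 to 59.3 TPM), Itgam (13.8 to 17.1 TPM) and Lpl (12.5 to 14.9 TPM). In such bulk samples fewer cells of a type and less RNA per cell cannot be told apart.

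After 1 h of BMP6 a small set of genes was higher in both isolations, and few were lower. The test covered the 14748 loci whose TPM averaged 1 or more across these libraries, and limma called 99 (0.671%) at an adjusted p under 0.05 in the fit that compares each BMP6 library with the vehicle library of its own isolation. Of these, 84 (0.57%) were higher after BMP6 and 15 (0.102%) were lower. Among loci above 0 TPM in every library the largest rises were those of Snai1, Hes1, Dlx2, Dlx3, Lfng, Smad7 and Smad6, which encode 4 transcription factors, 2 inhibitory SMADs and a Notch-modifying enzyme. Changes of at least 2-fold in both isolations were seen at 39 loci (0.264%) in the higher direction, 37 of them called, and at 5 loci (0.0339%) in the lower direction, 4 of them called.

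Over all tested loci, called or not, the SD of the log2 changes was 0.284 in isolation 75 and 0.27 in isolation 77. The changes of the 2 isolations correlated at 0.189 across loci, which are not independent replicates. An unadjusted limma p under 0.05 was found at 1320 loci, against 737.4 by chance, so loci that were not called cannot be read as unaffected. In 93 of the 99 called loci the vehicle and BMP6 values did not overlap, 81 with both BMP6 libraries above both vehicle libraries and 12 with both below. The other 6, whose levels overlapped although the change had the same sign within each isolation, were Hes6, Cspg4, Samd1, Myc, Txnip and Adamts1. Among all tested loci, 1463 (9.92%) had both BMP6 libraries above and 1416 (9.6%) had both below. The calls were made from these same 4 libraries, so the lack of overlap is no separate support for them.

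**Figure D1:**
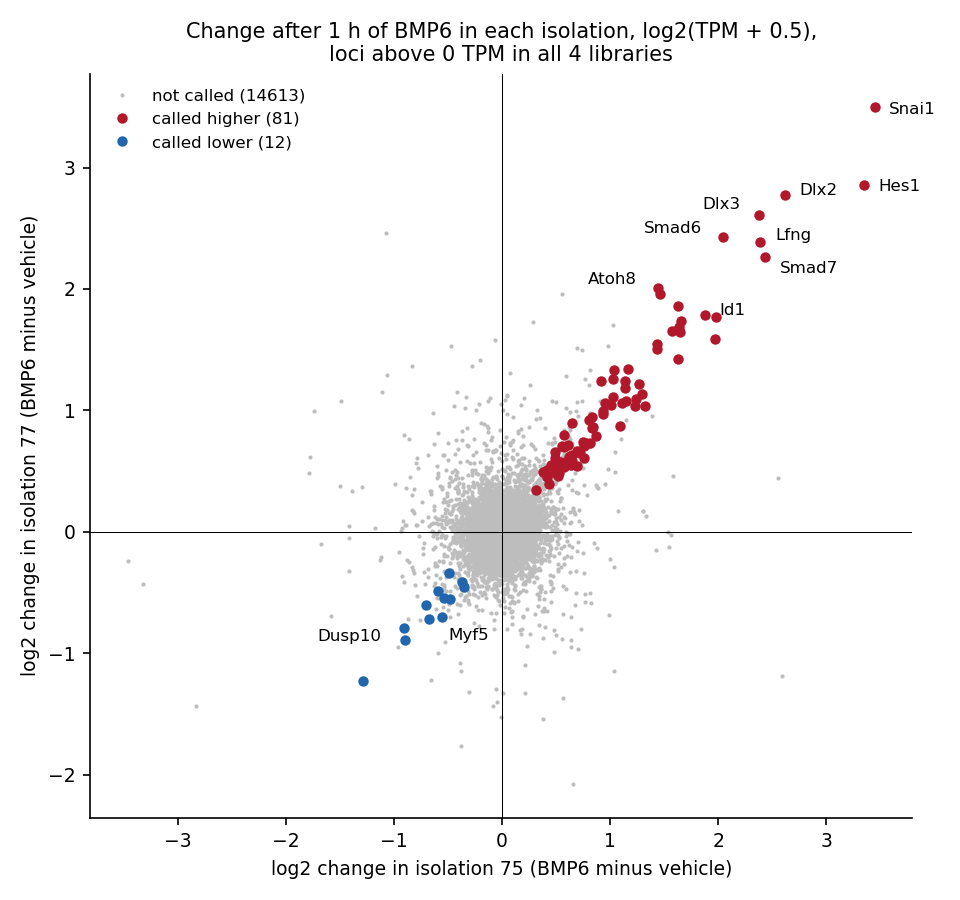
Log2 change after BMP6 in isolation 75 (x axis) and isolation 77 (y axis), on the log2(TPM + 0.5) scale, for the 14706 tested loci above 0 TPM in all 4 libraries. Each point is a locus; the 81 called higher (red) run along the diagonal up to Snai1, the 12 called lower (blue) stay close to the grey cloud of the 14613 loci not called.

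With 2 isolations the fit leaves 1 residual degree of freedom per gene, so the calls lean on the variance shared across genes and on the agreement of the 2 isolations. Without the isolation as a block, 15 loci were called, 12 higher (0.0814%) and 3 lower (0.0203%), all of them among the 99: Snai1, Dlx2, Lfng, Smad7, Id1, Id3, Sik1, Skil, Pwwp2b and 6 loci listed at 0 in 1 group that are described below. Dropping an isolation leaves a lone BMP6 and vehicle pair, which the fit with the block matches exactly. Its spread then comes only from the BMP4 experiment, so that fit does not measure the spread of the BMP6 experiment. Replicates lay further apart there, with a chi-square of estimated reads per gene of 270 (vehicle) and 299 (BMP4). The BMP6 experiment had 42.4 (vehicle) and 43.5 (BMP6). Dropping 1 library in the fit without the block gave 0 calls (either vehicle library), 13 (BMP6 of isolation 75) or 15 (BMP6 of isolation 77), with 8 of the 99 in each of the latter. The submitters call the 2 cultures of a group biological replicates.

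The negative feedback genes of the pathway rose in part. Of 14 BMP and SMAD feedback genes tested, 5 rose and none fell, with a median log2 change of 0.18 against -0.0028 over all tested loci. Over all tested loci 0.57% were called higher and 0.102% lower, the shares to set beside the count of each list below. The other 9 lay between -0.05 and 0.30, among them Smurf1 and Smurf2, the ubiquitin ligases that mark SMADs and receptors for destruction, and Ski at 0.30 (adjusted p = 0.114).

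Smad7, an inhibitory SMAD that blocks type I receptors, stood at 5.01 TPM with vehicle and 29.3 TPM with BMP6 in isolation 75, and at 6.27 and 32.1 TPM in isolation 77. Both BMP6 values lay far above both vehicle values (log2 change 2.35, SE 0.06, limma adjusted p = 0.000678). Smad6, the inhibitory SMAD that acts mainly on the BMP branch, went from 2.7 to 12.7 TPM in isolation 75 and from 1.76 to 11.6 TPM in isolation 77 (log2 change 2.24, SE 0.11, limma adjusted p = 0.00376). The gene occupies chromosome 9 at 63860358-63929341 on the minus strand in GRCm39.

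Nog encodes noggin, a secreted protein that binds BMPs and keeps them from their receptors. Its level was low, 1.15 and 0.918 TPM with vehicle against 5.94 and 3.76 TPM with BMP6, again without overlap (log2 change 1.78, SE 0.13, limma adjusted p = 0.015). Skil, which encodes the SMAD co-repressor SnoN, rose from 16.7 to 46.0 TPM and from 17.1 to 49.6 TPM (log2 change 1.47, SE 0.05, limma adjusted p = 0.00129). Pmepa1, a membrane adaptor that sequesters receptor SMADs of the TGF-beta branch, rose from 12 to 27.1 TPM and from 11.8 to 25.4 TPM (log2 change 1.11). Bambi, a pseudoreceptor often used as a BMP reporter, stayed below the 1 TPM minimum, with 0.614 and 0.598 TPM in vehicle and 0.763 and 0.660 TPM after BMP6.

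Among the SMADs that carry the signal, 1 of 6 was called: Smad9 went from 2.33 to 4.92 TPM and from 1.91 to 4.22 TPM (log2 change 0.95, limma adjusted p = 0.0278). Smad1 (12.1 to 15.5 TPM over the 4 libraries, adjusted p = 0.186), Smad5 and Smad4 did not pass. None of 9 tested receptors and co-receptors passed. All 13 on the list, the 4 below the minimum included, summed to 92.6 and 96.3 TPM with vehicle and to 95.7 TPM in both BMP6 libraries. Bmpr1a, the receptor whose soluble form was in the medium, lay between 19.1 and 22.4 TPM. None of the 3 tested BMP ligand genes passed either.

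All 4 Id genes had higher values after BMP6 in both isolations, as did 3943 of the 14748 tested loci, and 2 of the 4 passed. Id1 went from 103 to 379 TPM in isolation 75 and from 117 to 403 TPM in isolation 77, and Id3 from 117 to 365 TPM and from 122 to 392 TPM. Both had vehicle libraries within a narrow range and BMP6 libraries more than 3-fold higher (log2 changes 1.83, SE 0.04, and 1.66, SE 0.03; limma adjusted p = 0.00032 for each). Id2 had a vehicle level like theirs but a smaller and less even difference, from 123 to 172 TPM and from 131 to 225 TPM (log2 change 0.63, limma adjusted p = 0.0595). Id4, at 0.725 and 0.644 TPM with vehicle and 1.80 and 1.92 TPM with BMP6, did not pass either (log2 change 0.99, limma adjusted p = 0.117), and it reached the minimum only through its BMP6 libraries. In sum the 4 genes held 344 to 370 TPM with vehicle and 918 to 1022 TPM with BMP6.

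**Figure D2:**
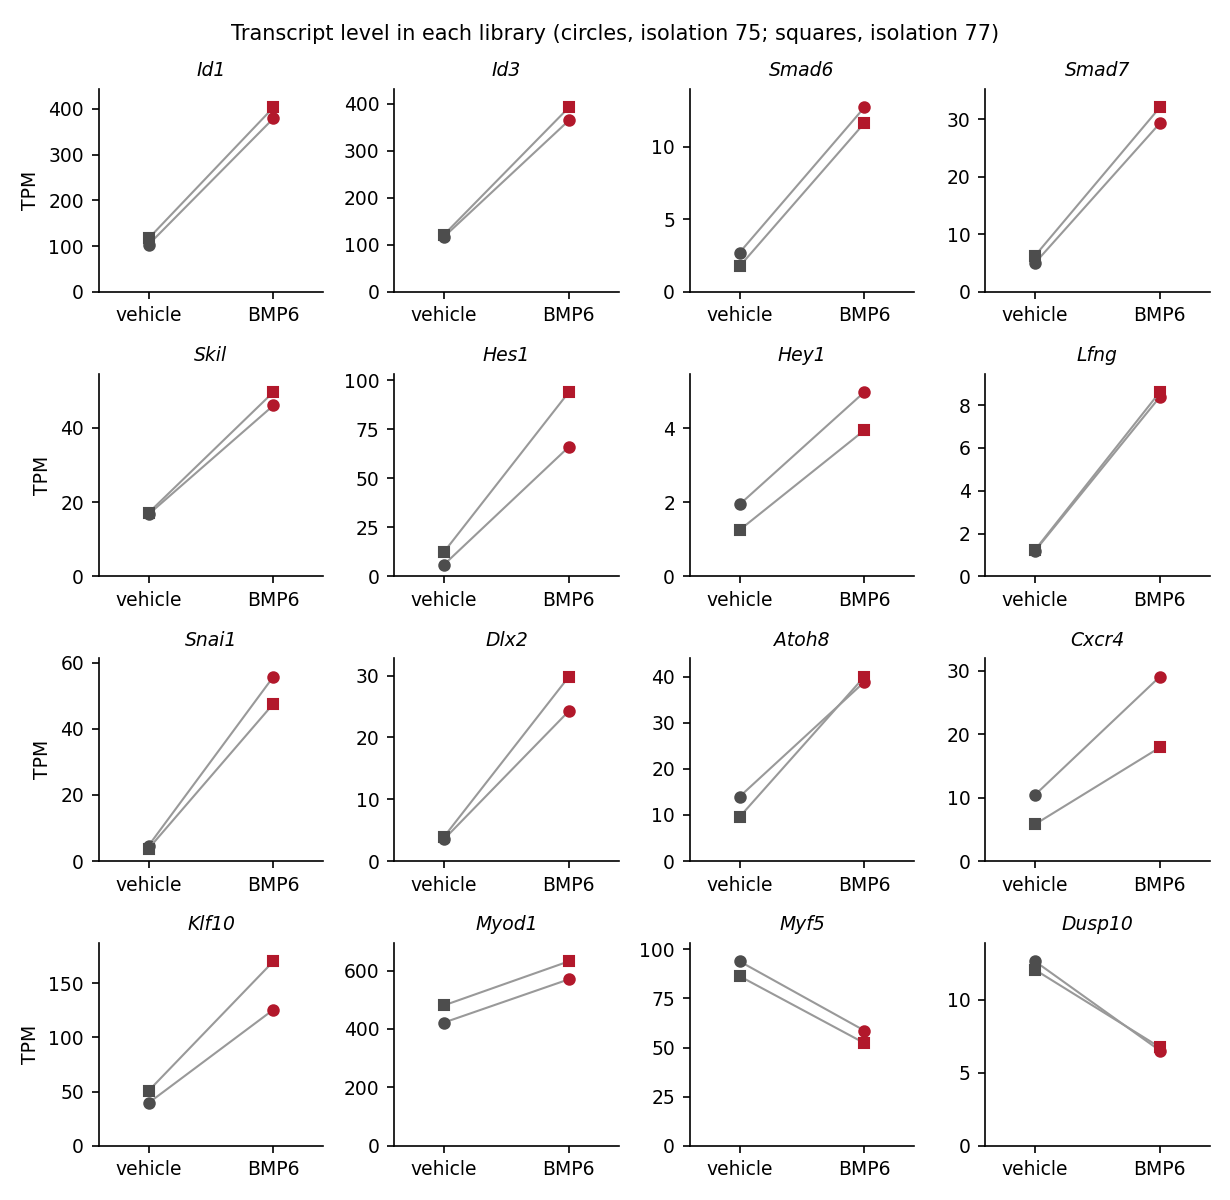
TPM of 16 genes in the 4 libraries (y axes start at 0; circles, isolation 75; squares, isolation 77; lines join the cultures of an isolation). All panels but the last pair, Myf5 and Dusp10, rise from vehicle (grey) to BMP6 (red); the vehicle and BMP6 values of Id1 and Id3 lie close within each group, whereas those of Hes1 and Cxcr4 differ between isolations in both groups.

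Hes1 and Hey1, genes read as Notch outputs, rose with BMP6, as did their relative Hes6, although the tested Notch receptors and ligands did not pass. Hes1, a basic helix-loop-helix repressor, went from 6.04 to 66.1 TPM in isolation 75 and from 12.5 to 94.0 TPM in isolation 77 (log2 change 3.10, SE 0.12, limma adjusted p = 0.00214). Its vehicle levels differed between the isolations, and without the block the adjusted p was 0.271. Hey1, a relative of Hes1, went from 1.94 to 4.98 TPM and from 1.25 to 3.95 TPM (log2 change 1.25, limma adjusted p = 0.0191). Hes6, a family member that counteracts HES1 and favours myogenesis, rose from 104 to 149 TPM and from 72.3 to 101 TPM (log2 change 0.50, limma adjusted p = 0.0122). Its BMP6 value in isolation 77 lay below its vehicle value in isolation 75, so the change shows only within isolations.

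These 3 are the only members of the 9-gene Notch effector list that reached 1 TPM, so their count does not describe the whole list. Heyl lay at 0.477 and 0.508 TPM with vehicle and 0.674 and 0.787 TPM with BMP6, Nrarp at 0.163 to 0.252 TPM over the 4 libraries, and Hes5 was at 0 in all of them. Heyl and Nrarp, both close readouts of Notch receptor activity in many tissues, were thus at a low level in all 4 libraries.

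Lfng encodes lunatic fringe, a glycosyltransferase that adds sugars to Notch receptors and alters which ligands they answer to. It went from 1.20 to 8.38 TPM and from 1.24 to 8.61 TPM, nearly the same values in both isolations (log2 change 2.39, SE 0.08, limma adjusted p = 0.00175). Lfng was the only one of 28 tested Notch receptors, ligands and machinery genes to pass, and the median log2 change of the list was 0.03. Notch1 was at 4.35 and 5.09 TPM with vehicle and 5.13 and 5.8 TPM with BMP6 (adjusted p = 0.514). Notch2, Notch3, Rbpj, Jag1 and Dll1 had log2 changes between -0.13 and 0.27, none of which passed.

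Transcription factors of early lineage decisions included the largest rise of any locus with a level above 0 in every library. Snai1, a zinc finger repressor known from epithelial-mesenchymal transition that also restrains MYOD1 targets in myoblasts, stood at 4.66 and 3.76 TPM with vehicle and at 55.8 and 47.6 TPM with BMP6. The 2 isolations gave almost equal log2 changes, 3.45 and 3.50 (mean 3.47, SE 0.05, limma adjusted p = 0.000263). Snai1 was 1 of 4 tested transition factors called; Snai2, Zeb1 and Zeb2 had log2 changes between -0.28 and 0.09 and did not pass. It lies on chromosome 2 at 167380115-167384734, plus strand, in GRCm39.

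Dlx2 and Dlx3 are homeobox genes of the Distal-less family, best known in craniofacial, skeletal and skin development. Dlx2 rose from 3.54 to 24.3 TPM and from 3.94 to 29.8 TPM (log2 change 2.69, SE 0.06, limma adjusted p = 0.000444). Dlx3 rose from 1.08 to 7.66 TPM and from 0.721 to 6.96 TPM (log2 change 2.49, SE 0.11, limma adjusted p = 0.00231). They were the only Dlx or Msx genes to reach 1 TPM, and for Dlx3 it was the BMP6 libraries that brought it there. Below that minimum, Msx2 was at 0.284 and 0.166 TPM with vehicle and 0.487 and 0.302 TPM with BMP6, and Dlx1 at 0.0825 and 0 TPM against 0.296 and 0.223 TPM.

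Of 9 tested skeletal and tendon lineage factors 5 were called higher and none lower, with a list median of 0.50. Of the 5, Foxc2 was tested only because its BMP6 levels were high, so neither the count nor the median supports a direction of the list. Foxc2, a forkhead factor of mesenchyme and lymphatic vessels, went from 0.303 to 2.66 TPM and from 0.647 to 3.42 TPM (log2 change 1.87). Atoh8, a basic helix-loop-helix factor known as a BMP-SMAD target in liver and endothelium, went from 14 to 38.9 TPM and from 9.57 to 40.0 TPM (log2 change 1.73, limma adjusted p = 0.0167). Sp7 (osterix, of bone-forming cells) rose from 1.77 to 4.11 TPM and from 2.73 to 7.23 TPM.

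Gata2, a zinc finger factor, rose from 12.2 to 22.1 TPM and from 15.8 to 29.0 TPM, and Scx, the tendon factor scleraxis, from 54.7 to 75.3 TPM and from 41.1 to 60.4 TPM. The other 4 factors did not pass: Runx2 stayed between 24.1 and 26.4 TPM, Sox9 between 12.2 and 17.7 TPM, and Runx1 and Gata3 had log2 changes of 0.08 and 0.42. The 5 that passed therefore differ widely in size, from 0.50 for Scx to 1.87 for Foxc2.

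The promoters of 4 of the strongest risers are printed because their genes rose together within 1 h and have an entry in the RefSeq promoter table. They are the 250 bases before each start site in the mouse build GRCm38.p6, read 5′ to 3′ on the gene's strand: Snai1 at chr2:167537945-167538194 (plus), Dlx2 at chr2:71546755-71547004 (minus), Lfng at chr5:140607091-140607340 (plus) and Smad6 at chr9:64022060-64022309 (minus). Capitals mark matches on either strand to GGCGCC (a GC-rich SMAD1/5 element), CAGAC (a SMAD-binding element) or TGGGAA (a binding word of RBPJ, the DNA-binding partner of Notch).
Snai1: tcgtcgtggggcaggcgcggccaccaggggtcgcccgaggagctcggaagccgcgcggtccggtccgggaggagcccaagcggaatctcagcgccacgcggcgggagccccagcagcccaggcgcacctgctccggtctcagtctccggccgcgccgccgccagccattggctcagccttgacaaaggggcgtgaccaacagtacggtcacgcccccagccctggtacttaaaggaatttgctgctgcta
Dlx2: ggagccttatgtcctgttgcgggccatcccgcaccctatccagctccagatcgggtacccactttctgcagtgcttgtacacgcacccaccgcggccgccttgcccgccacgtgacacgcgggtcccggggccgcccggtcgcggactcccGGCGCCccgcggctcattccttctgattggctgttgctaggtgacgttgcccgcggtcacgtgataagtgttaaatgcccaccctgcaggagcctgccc
Lfng: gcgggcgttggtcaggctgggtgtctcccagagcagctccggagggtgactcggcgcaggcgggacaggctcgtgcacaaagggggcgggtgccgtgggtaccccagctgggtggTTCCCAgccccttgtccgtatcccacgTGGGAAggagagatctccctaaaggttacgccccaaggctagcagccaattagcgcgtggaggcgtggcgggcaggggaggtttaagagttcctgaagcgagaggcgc
Smad6: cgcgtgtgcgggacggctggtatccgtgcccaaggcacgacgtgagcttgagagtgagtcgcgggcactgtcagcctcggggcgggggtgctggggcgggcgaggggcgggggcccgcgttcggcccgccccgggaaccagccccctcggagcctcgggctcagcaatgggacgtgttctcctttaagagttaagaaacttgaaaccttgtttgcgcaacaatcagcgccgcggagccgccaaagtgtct

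Dlx2 held 1 GGCGCC beginning 99 bases before the start, Lfng held 2 TGGGAA words on opposite strands, and the windows of Snai1 and Smad6 held none of the 3 words. Across the 53 genes called higher that matched the table by symbol, GGCGCC was present in 20.8% of promoters against 17.8% of the 8713 tested genes with a promoter. The shares were 35.8% against 40.1% for CAGAC and 17.0% against 20.1% for TGGGAA. The promoters of the risers were somewhat richer in G and C, with a median of 65.6% against 60.4%. No word was thus much more frequent near the starts of the risers than near those of all tested genes, and a match is only a run of letters, not a bound site.

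Myogenic regulators split: 1 of 15 rose, 1 fell and the median log2 change was 0.06. Myf5, which marks committed satellite cells and myoblasts, fell from 94.0 to 58.6 TPM in isolation 75 and from 86.4 to 52.3 TPM in isolation 77 (log2 change -0.70, SE 0.04, limma adjusted p = 0.00536). Myod1, the myogenic determination factor, rose from 422 to 570 TPM and from 481 to 631 TPM (log2 change 0.41, SE 0.03, limma adjusted p = 0.011). The 2 related factors thus moved in opposite directions in both isolations, and neither passed without the block (adjusted p = 0.346 and 1).

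Pax7, the transcription factor that defines satellite cells, did not differ beyond its error, at 12.4 and 12.2 TPM in isolation 75 and 11.1 and 12.5 TPM in isolation 77 (log2 change 0.06, SE 0.07). Myog, the driver of differentiation, was at 110 and 145 TPM and at 143 and 140 TPM, so its isolations differed in direction. None of 24 sarcomere and differentiation genes passed (median 0.09), and neither did any of 21 proliferation genes (median -0.02), 10 cyclins and cell cycle inhibitors (median 0.02) or 23 ribosomal protein genes (median -0.01).

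Of 16 satellite cell surface and quiescence markers, Cxcr4 alone passed. Cxcr4, the receptor of the chemokine CXCL12, rose by a like factor in each isolation from different starting levels, 10.4 to 29.1 TPM and 5.79 to 17.9 TPM (log2 change 1.49, SE 0.06, limma adjusted p = 0.00214, but 1 without the block). Its ligand gene Cxcl12 had a log2 change of -0.07 and did not pass.

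**Figure D3:**
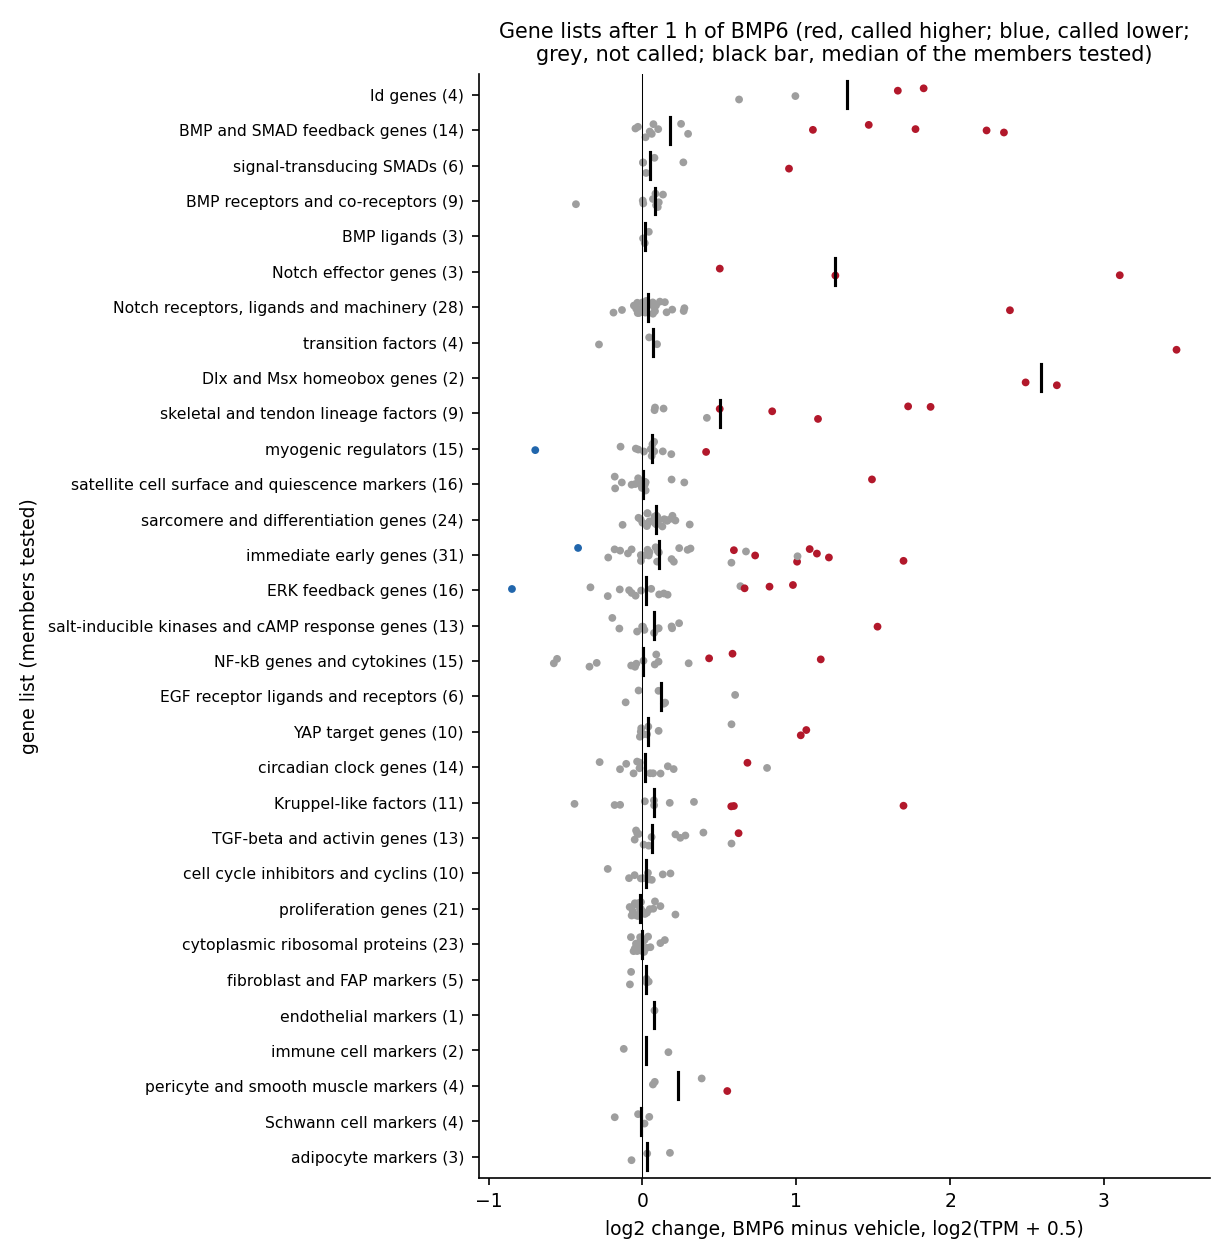
Log2 change after BMP6 of every tested member of 31 gene lists (x axis; 1 row per list, with the number tested; red, called higher; blue, called lower; grey, not called; black bar, list median). Most lists centre near 0 with single members far to the right; Dlx3, Foxc2 and Id4 had vehicle means below 1 TPM and are shown only because their BMP6 levels were high.

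Immediate early genes, which respond within minutes to many stimuli, answered in part. Of 31 tested, 7 rose, 1 fell, and the median log2 change was 0.11. Klf10, also known as TGF-beta-inducible early gene 1, rose from 39.5 to 126 TPM and from 50.7 to 170.4 TPM (log2 change 1.70, SE 0.04, limma adjusted p = 0.000444). Junb, an AP-1 subunit and known BMP-SMAD target, rose from 103 to 200 TPM and from 105 to 218 TPM (log2 change 1.00).

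Ier5l, Gadd45b, Csrnp1, Gadd45g and Klf4 completed the 7, with log2 changes of 1.21, 1.13, 1.09, 0.73 and 0.59. Gadd45b, a stress sensor of the GADD45 family, went from 36.1 to 85.5 TPM and from 40.0 to 82.5 TPM, and Gadd45g from 145 to 245 TPM and from 206 to 337 TPM. The genes most used as marks of general stimulation did not pass: Egr1 (1.64 and 2.03 TPM in isolation 75, 5.22 and 4.94 TPM in isolation 77), Ier2, Jun and Fos (log2 change 0.58, adjusted p = 0.166). Myc fell from 170 to 120 TPM and from 248 to 195 TPM (log2 change -0.42, limma adjusted p = 0.048).

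Feedback regulators of MAP kinases went both ways, with 3 of 16 higher and 1 lower. Dusp1, Dusp8 and Phlda1 had log2 changes of 0.98, 0.83 and 0.66. Dusp10, a phosphatase of the stress kinases p38 and JNK, fell from 12.6 to 6.52 TPM and from 12.1 to 6.75 TPM (log2 change -0.85, SE 0.06, limma adjusted p = 0.0125). Dusp6 and the Sprouty genes, which follow ERK activity in many cells, did not pass.

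Single members passed in further lists. Sik1, a salt-inducible kinase, rose from 5.66 to 18.6 TPM and from 6.46 to 18.2 TPM (log2 change 1.53, SE 0.07), whereas Sik2 and Sik3 and the other 10 genes of that list did not pass. Nfkbia, the inhibitor of NF-kB, rose from 18.2 to 40.6 TPM and from 15.4 to 35.6 TPM (log2 change 1.16); Bcl3 and Csf1 also passed among 15 NF-kB genes and cytokines, at 0.59 and 0.43, while Rela, Nfkb1 and Tnfaip3 did not.

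Ccn1 and Amotl2, both known YAP targets, passed among 10 such genes with log2 changes of 1.06 and 1.03, but Ccn2 and Ankrd1 did not. Klf3 passed beside Klf10 and Klf4 among 11 Kruppel-like factors, and Bhlhe40, a clock-linked repressor, among 14 circadian genes (24.1 to 40.0 TPM and 34.6 to 54.4 TPM).

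Few markers of other cell types passed. Of 19 tested markers of fibroblasts, endothelium, immune cells, pericytes, Schwann cells and adipocytes, Cspg4 alone passed, from 7.62 to 11.2 TPM and from 11.4 to 17.2 TPM (log2 change 0.55). Mcam, on the same list of pericyte and smooth muscle markers, was at 6.10 and 8.39 TPM in isolation 75 and at 8.88 and 11.4 TPM in isolation 77 (log2 change 0.38, limma adjusted p = 0.12). The 4 tested members of that list had a median of 0.23, 3 of them positive in both isolations, as were 3943 of the 14748 tested loci. The 8 pericyte and smooth muscle markers summed to 75.2 and 84.2 TPM with vehicle, against 87.0 and 92.5 TPM with BMP6; 4 of them were below 1 TPM and none was at 0 in all libraries. The fibroblast markers summed to 62.5 and 72.0 TPM with vehicle and to 64.7 and 66.9 TPM with BMP6, and the immune markers to 15.7 and 18.6 TPM and to 15.4 and 16.5 TPM. The part of such cells in any result was not tested.

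Arid3a, a DNA-binding factor, was low, from 0.240 to 1.78 TPM and from 0.292 to 2.37 TPM (log2 change 1.74, limma adjusted p = 0.0373). With Dlx3, Foxc2, Mdfi and 1700016A09Rik it is 1 of 5 called loci with a vehicle mean below 1 TPM and no library at 0; these were tested only because their BMP6 levels were high. Gse1, singled out after its values were seen, rose from 11.9 to 33.5 TPM and from 8.39 to 34.1 TPM. The called loci 1700016A09Rik and Gins2 overlap Gse1 on the opposite strand. The first lies within Gse1, whereas Gins2 (121305372-121316043) shares only the stretch up to the end of Gse1 at 121308129. Since the quantification used no strand option, reads from the shared stretches cannot be told apart from those of Gse1.

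Of the 15 loci called lower, Myf5, Dusp10 and Myc are described above and 3 are listed at 0 in both BMP6 libraries. Plk2, a kinase of the Polo family, fell from 229 to 157 TPM and from 187 to 128 TPM (log2 change -0.54, SE 0.03, limma adjusted p = 0.00645). The small nucleolar RNA gene Snora57 and the non-coding loci D730044K07Rik and Gm26287 had log2 changes of -0.65, -0.63 and -1.26; poly(A) libraries of small RNA genes are an uncertain measure. The rest, named after their values were seen, were Cited2, Adamts1, Txnip and Mex3b (log2 changes between -0.39 and -0.54) and the antisense locus ENSMUSG00000120982.

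Transcript estimates give a rough view of which annotated form carried a rise. Skil has 4 annotated transcripts, 3 of which start within a short stretch at 31149207-31149274 on chromosome 3 (GRCm39), while ENSMUST00000118204.2 starts at 31150982. The estimate for ENSMUST00000118204.2 went from 8.10 to 39.3 TPM in isolation 75 and from 5.17 to 35.1 TPM in isolation 77. The other 3 together were at 8.60 and 6.67 TPM in isolation 75 and at 11.9 and 14.5 TPM in isolation 77. Singly they were less even: ENSMUST00000029194.12 went from 5.64 to 0.547 TPM in isolation 75 but from 1.63 to 4.1 TPM in isolation 77. The share of ENSMUST00000118204.2 in the gene went from 48.5% to 85.5% and from 30.2% to 70.8%.

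**Figure D4:**
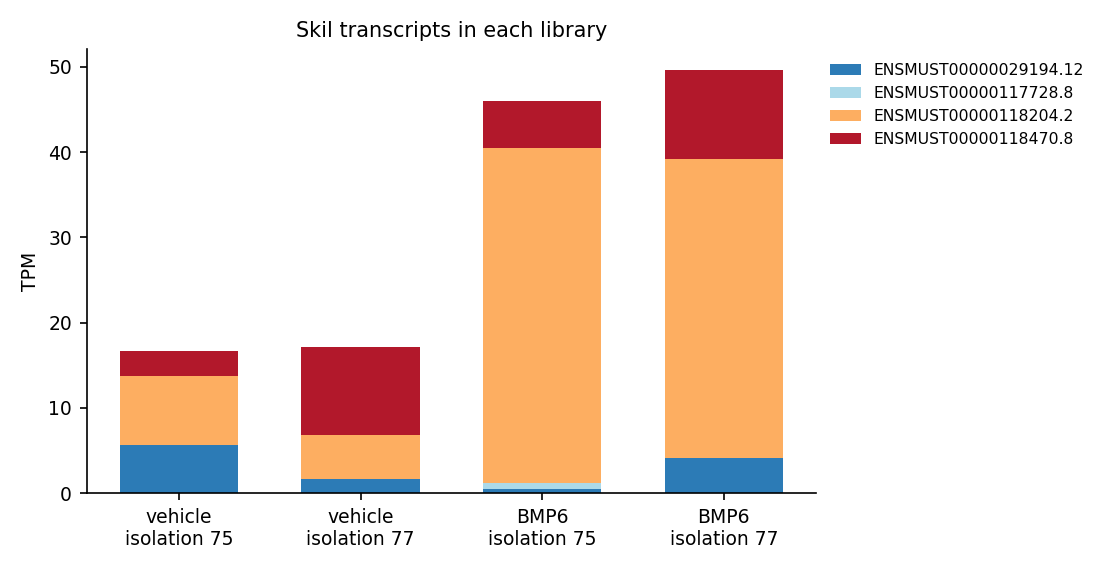
TPM of the 4 annotated Skil transcripts, stacked, in each of the 4 libraries (y axis starts at 0). The orange block, ENSMUST00000118204.2, makes up most of both BMP6 bars, and each of the other blocks changes by fewer TPM between vehicle and BMP6.

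For Id1 both annotated transcripts had higher estimates, the main one from 93.6 to 339.6 TPM and from 106 to 352 TPM and the longer one from 9.67 to 39.6 TPM and from 10.6 to 51.5 TPM. For Klf10 the transcript ENSMUST00000074043.7 held at least 89.3% of the gene in every library, and for Bhlhe40 and Gadd45b 1 transcript held at least 95.3%. Transcripts that share most exons are hard to separate with 50-nt reads, and no test was made on them.

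At 6 called loci every library of 1 group is listed at exactly 0. Gm7082 (11.9 and 12.6 TPM), Hspe1-ps1 (8.22 and 6.98 TPM) and Znhit2 (5.66 and 5.27 TPM) had these values after BMP6 and 0 in both vehicle libraries. Gm12901 (22.7 and 19.6 TPM), Gm12551 (7.26 and 6.05 TPM) and Eif1ad17 (3.36 and 3.98 TPM) had these values with vehicle and were listed at 0 after BMP6. By its name Hspe1-ps1 is a pseudogene.

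Of these loci 5 also switched between 0 and several TPM in the other experiment, 4 of them without following the treatment in both of its isolations; Eif1ad17 was at 0 and 0.962 TPM with vehicle there and at 0 with BMP4. In isolations 48 and 54 Gm7082 was at 8.33 and 0 TPM with vehicle and 8.84 and 8.94 TPM with BMP4, and Gm12901 at 19.4 and 15 TPM with vehicle and 24.1 and 0 TPM with BMP4. Gm12551 alone followed the ligand there too, at 4.22 and 2.56 TPM with vehicle and 0 in both BMP4 libraries. Over all tested loci 34 switched between 0 and at least 3 TPM within the 4 libraries, 3 with both vehicle libraries at 0, 3 with both BMP6 libraries at 0 and 28 in other patterns. An exact 0 beside such values can be a failed estimate, so no fold change is given.

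Znhit2 overlaps the antisense locus ENSMUSG00000120982, which was called lower, from 9.27 to 4.75 TPM and from 8.73 to 4.46 TPM. Summed, the pair held 9.27 and 10.4 TPM in isolation 75 and 8.73 and 9.74 TPM in isolation 77, so that the total changed far less than either locus. With all loci listed at 0 in any of the 4 libraries left out, a choice made after seeing the data, 108 loci were called, 93 higher and 15 lower.

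Most risers also had higher values after BMP4, measured in other isolations with their own vehicle. Of the 84 loci called higher, 74 were higher in both BMP4 isolations, against 28.8% of all tested loci, and 2 (Ccn1 and Map7d1) were lower in both. Of the 15 called lower, 9 were lower in both BMP4 isolations, against 35.8% of all tested loci, and Mex3b was higher in both. The median log2 change of the 84 was 0.92 with BMP6, which chose them, and 0.78 with BMP4.

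The difference between the responses, tested as an interaction over all 8 libraries with the isolation as a block, was called at none of the 14748 loci by limma (0.0%). The smallest adjusted p was 0.102, and 2137 loci had an unadjusted p under 0.05 (204 without the block, again with 0 called). Ligand and set of isolations cannot be told apart in this design.

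The widest gaps among the named genes above 0 were in Ccn1, Atoh8, Snai1 and Bhlhe40. Ccn1, a matricellular protein gene, rose with BMP6 (24.3 to 49.9 TPM and 30.1 to 65.5 TPM) but was at 85.3 and 52.0 TPM and at 294 and 58.9 TPM in the vehicle and BMP4 cultures of isolations 48 and 54. Atoh8 was at 50.1 and 44.3 TPM and at 24.2 and 32.8 TPM in those cultures, so the vehicle levels there were above those of isolations 75 and 77. The difference in its log2 change was 1.60 (SE 0.27, adjusted p = 0.221).

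Snai1 too had higher vehicle levels in the BMP4 experiment, 35.9 and 16.9 TPM, and reached 95.5 and 98.1 TPM with BMP4 (difference 1.52, SE 0.36, adjusted p = 0.264). Bhlhe40 leaned the other way, from 16.5 to 83.3 TPM and from 19.9 to 82.2 TPM with BMP4 (difference -1.48, SE 0.11, adjusted p = 0.102). Gadd45b had a difference of -1.04 (adjusted p = 0.148). Dlx2, Hes1 and Id1 differed by -0.06, 0.43 and 0.29, with adjusted p values of 0.955, 0.511 and 0.558.

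For the muscle factors, Myf5 was lower in every treated culture than in its vehicle, with log2 changes of -0.70 after BMP6 and -1.17 after BMP4, the latter from 52.3 to 23.0 TPM and from 38.2 to 16.6 TPM. Myod1, which rose with BMP6, was at 839 and 763 TPM and at 543 and 562 TPM in the vehicle and BMP4 cultures, 1 isolation lower and 1 higher with BMP4 (difference 0.46, SE 0.07, adjusted p = 0.215). Pax7 was at 16.9 and 12.3 TPM and at 16.7 and 12.6 TPM in those cultures, lower with BMP4 in both isolations. Its difference of 0.48 (SE 0.09, limma adjusted p = 0.243) did not pass.

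**Figure D5:**
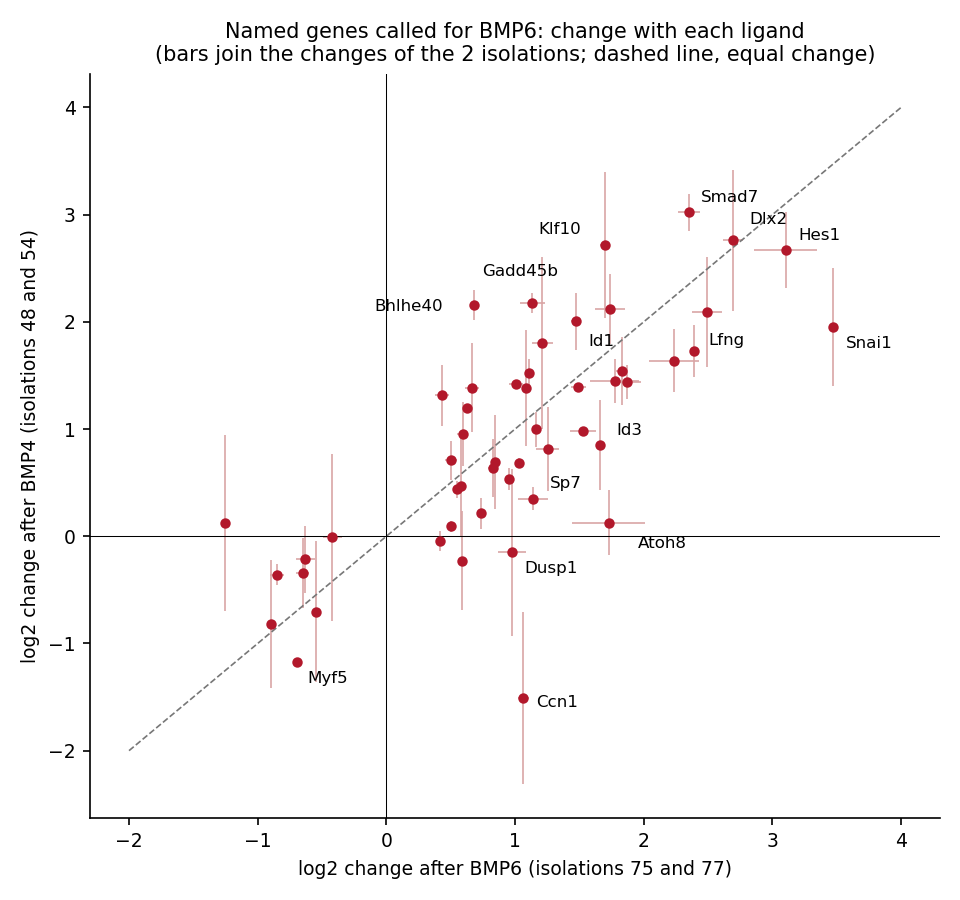
Mean log2 change after BMP6 (x axis) and after BMP4 (y axis) of the 51 named genes called for BMP6 and above 0 TPM in its 4 libraries; bars join the 2 isolations and the dashed line marks equal change. Most points lie in the upper right, Bhlhe40 and Gadd45b lie above the line, and Snai1, Atoh8 and Ccn1 lie below it, with wide bars on the BMP4 axis for several genes.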

How the data were processed

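Poly(A) RNA of each culture (500 ng) was sequenced as strand-specific, single-end libraries of 50 nt, per the labels' protocols. The submitters' processing notes name the build GRCm39, STAR 2.7.11a and SAMtools 1.17. The authors used StringTie 2.2.1 for the TPM and FPKM values and the coverage signal per transcript, without multi-mapping correction and without a strand option, per the file headers, so pseudogenes, antisense and overlapping loci are uncertain. All 55223 rows of the deposited joint TPM table equalled those of the single tables within 1e-05. FPKM values as deposited were not analysed. Depth was estimated from coverage, transcript length and read length. Replicates were no duplicates (chi-square of estimated reads per gene 42.4 for vehicle and 43.5 for BMP6).

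Loci averaging 1 TPM or more across these 4 libraries were tested with limma 3.58.1 (R 4.3.3) on log2(TPM + 0.5), with a variance trend and the isolation as a block, Benjamini-Hochberg adjusted over 14748 loci, two-sided, threshold 0.05. Fold changes are on that scale, which understates changes of low genes. The labels give both cultures of an isolation the same number; deviations from group means correlated at 0.508 across loci. Alternatives varied the block, libraries, pseudocount, minimum, centring and moderation, and used voom on estimated reads. The procedure was also run on simulated data. Their variances were drawn from the fitted model, so that run does not check whether the model holds for these libraries.

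Named genes were 27 genes of the BMP, Notch and myogenic programmes, the 15 largest rises and 10 largest falls among called loci, and up to 4 called members of each of 31 lists (434 genes, of which 430 had a locus of their own and 329 were tested). The members and lists were chosen with earlier results of these data known. Promoters came from RefSeq (GRCm38.p6), matched by symbol.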

Additional observations from a re-analysis of the deposited data

Results flagged for a closer look

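Ccn1 had log2 changes of opposite sign with the 2 ligands in every isolation: 1.02 and 1.11 after BMP6 in isolations 75 and 77, and -0.71 and -2.31 after BMP4 in isolations 48 and 54. The difference of 2.58 (SE 0.51) had an unadjusted limma p of 0.00382 and an adjusted p of 0.243, so it did not pass. The vehicle levels of Ccn1 also differed between the experiments, 24.3 and 30.1 TPM beside BMP6 against 85.3 and 294 TPM beside BMP4.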

How the results depend on the processing

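The number of called loci depended on how the isolations were treated. Against 99 (84 higher, 15 lower), 15 loci were called with no replicate block (12 higher, 3 lower), 31 with all 8 libraries and the replicate block (28 and 3), and 2 with all 8 libraries and no replicate block (1 and 1). All of these were among the 99. With no filter on low values 5 were called (4 and 1), and voom on estimated reads with the replicate block called 570 (420 and 150), including 95 of the 99. That voom fit scaled the reads by their total and was chosen after seeing the data; the planned one with TMM scaling is not reported, since the deposited files hold no counts. Leaving out 1 isolation or 1 library gave 0 to 15 calls, 0 to 8 higher and 0 to 7 lower, of which at most 8 were among the 99. A lone pair was then assumed to vary like the libraries of the BMP4 experiment, and a lone library like those of the other group. The other pseudocounts, the stricter minimum, median centring, robust moderation and leaving out loci listed at 0 gave 90 to 120 calls.

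Loci at least 2-fold higher in both isolations numbered 24 with a pseudocount of 2 and 23 at a mean of at least 5 TPM, against 39. Those lower numbered 3 and 1 under these settings and 16 with no filter, against 5. None of the 57 named called genes changed direction in any setting in which it was tested. The settings reuse the same libraries and the calls lean on the agreement of the 2 isolations. A change of direction was thus hardly possible, and its absence is no separate support for the calls. Pax7, not called, was at 0.158 without isolation 75, turned to -0.0281 without isolation 77 and to -0.0127 without the vehicle library of isolation 77. With a pseudocount of 2 the BMP6 minus BMP4 differences of Dlx2 and Nog turned to 0.183 and -0.018; neither was called. With 1 residual degree of freedom, loci that were not called cannot be read as unaffected, and TPM keep no absolute amount of RNA.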
